A study of Homo sapiens with 21 samples.

Results

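Transcripts of 7 intermediate filament genes were followed in differentiated SH-SY5Y cells exposed to per- and polyfluoroalkyl substances (PFAS): NEFL, NEFM, NEFH, INA, PRPH, VIM and NES. The genes were found by symbol, with no threshold on their values, and are 7 of the 62656 genes in the deposited count table. All 7 passed the filter on low counts that left 24879 genes for testing. RNA-seq libraries of total RNA came from SH-SY5Y, a human neuroblastoma line labelled wild type, after 11 days of differentiation into neuron-like cells. The 6 exposed groups received PFOA, PFDA, PFOS, PFDS, 8:2 FTOH or 8:2 FTS at 30 µM for 24 h, in solutions that ended at 1% methanol. The other group is the control, and its methanol content is not given in the sources used here. Each group has 3 libraries, 21 in all. The labels describe triplicates without saying whether these were separate cultures, and the p-values therefore cover the scatter among these libraries alone, which could be technical. Cells before differentiation were not analysed here, so the levels describe 1 line at 1 stage of its culture.

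PFOA and its longer-chain relative PFDA are perfluoroalkyl carboxylic acids. PFOS and the longer PFDS carry a sulfonic acid group instead. 8:2 FTS and 8:2 FTOH are fluorotelomers, in which a short hydrocarbon link joins the fluorinated chain to a sulfonic acid or to an alcohol group.

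Intermediate filaments are rope-like polymers that give axons their calibre and cells their mechanical strength. In neurons the light chain NEFL is the core on which the medium chain NEFM and the heavy chain NEFH assemble, and the long phosphorylated tails of NEFM and NEFH project from the filament. INA (alpha-internexin) joins the same polymer, PRPH (peripherin) is a filament protein of peripheral neurons, and VIM (vimentin) and NES (nestin) are filaments of progenitor and mesenchymal cells that neurons lose as they mature. Neurofilament light protein released into blood is widely used as a marker of axonal injury.

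The RefSeq promoter table (GRCh38.p14) held 4 of the 7 genes, and the 250 bases before each start are shown because these genes span the range from abundant (NES, INA) to scarce (VIM, PRPH) transcripts in the same cells. The windows are chr1:156677408-156677657 on the minus strand for NES, chr10:103276888-103277137 on the plus strand for INA, chr10:17227991-17228240 on the plus strand for VIM and chr12:49294897-49295146 on the plus strand for PRPH. Each reads 5′ to 3′ on the strand of its gene, and capitals mark, on either strand, a GC box, spelled GGGCGG. Capitals also mark the core of a TATA box, which is spelled TATAAA.
NES: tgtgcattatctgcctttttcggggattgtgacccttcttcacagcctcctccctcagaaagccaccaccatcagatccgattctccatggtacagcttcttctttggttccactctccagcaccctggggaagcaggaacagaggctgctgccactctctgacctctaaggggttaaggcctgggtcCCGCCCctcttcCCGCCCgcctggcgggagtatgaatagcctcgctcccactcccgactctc
INA: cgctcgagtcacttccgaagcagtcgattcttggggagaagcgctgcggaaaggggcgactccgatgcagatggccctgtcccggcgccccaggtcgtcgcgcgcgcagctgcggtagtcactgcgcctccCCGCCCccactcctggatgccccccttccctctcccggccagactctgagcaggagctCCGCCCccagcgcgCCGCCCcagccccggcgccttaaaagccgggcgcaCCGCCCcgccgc
VIM: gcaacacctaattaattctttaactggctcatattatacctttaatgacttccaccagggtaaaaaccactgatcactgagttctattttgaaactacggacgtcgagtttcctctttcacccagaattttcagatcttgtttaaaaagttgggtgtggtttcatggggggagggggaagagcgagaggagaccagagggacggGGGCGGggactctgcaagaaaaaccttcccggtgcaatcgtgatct
PRPH: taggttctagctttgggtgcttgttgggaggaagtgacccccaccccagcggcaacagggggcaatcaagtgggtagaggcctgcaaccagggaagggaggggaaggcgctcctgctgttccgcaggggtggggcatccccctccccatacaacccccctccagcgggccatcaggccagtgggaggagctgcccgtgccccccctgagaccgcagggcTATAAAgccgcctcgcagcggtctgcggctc
INA held 4 GC boxes, NES 2, VIM 1 and PRPH 0, and the motif occurs in 42.6% of all 35116 promoter windows of that length. PRPH held the only TATA box of the 4, which starts 31 bases before the transcription start, and 10.7% of all windows hold one. The EGR motif GCGNGGGCG (8.4% of windows) and the AP-1 motif TGANTCA (6.6%) had no match in these 4 windows on either strand. The G and C content was 72.8% for INA, 66.8% for PRPH, 58.0% for NES and 46% for VIM, against a median of 58.0% over all windows. These are letters in a window and not measured binding.

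The 7 genes lie at 6 places in the genome (build hg38), because NEFL and NEFM are neighbours. NEFL (ENSG00000277586) spans chromosome 8, bases 24950955 to 24956721, on the minus strand, and NEFM (ENSG00000104722) spans chromosome 8, bases 24913758 to 24919098, on the plus strand. NEFH (ENSG00000100285) lies on chromosome 22 at 29480218 to 29491390, INA (ENSG00000148798) on chromosome 10 at 103277138 to 103290346 and VIM (ENSG00000026025) on chromosome 10 at 17228241 to 17237593. PRPH (ENSG00000135406) lies on chromosome 12 at 49295147 to 49298686 and NES (ENSG00000132688) on chromosome 1 at 156668763 to 156677407. Reads were counted over exons without using strand, and a read that touched 2 genes was not counted, so exons that lie over another gene lose reads. NES shares 0% of its exonic bases with another gene, NEFH 9.0%, INA 13.9%, NEFL 19.8%, VIM 24.6% and NEFM 26.4%. PRPH shares 71.5% with the antisense gene TROAP-AS1, which makes its level a lower reading than that of the others.

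The libraries held between 7680024 and 30429746 counts, with a median of 14633793, and the 3 controls 22179910 to 24905803. The mitochondrial share was 6.33% for control replicate 3 and 6.11% for 8:2 FTOH replicate 3, the pair of libraries absent from the authors' normalized table. It was 3.37% to 5.4% for the rest. Of 8 neuronal markers, 8 averaged at least 1 CPM (counts scaled to the effective library size, after TMM normalization) in controls, from RBFOX3 at 1.68 to STMN2 at 1189. Of 6 noradrenergic markers 5 did, with DBH at 1146 and TH at 0.592. MKI67, a marker of dividing cells, averaged 856 CPM. The 6 Schwann and glial markers summed to 11.5 to 13.2 CPM in controls and 10.1 to 16.3 in exposed libraries, with GFAP and S100B under 1. The 6 fibroblast and mesenchymal markers summed to 107.5 to 123.1 and 91.45 to 128.9 CPM. In controls 5 of these 6 averaged at least 1 CPM, with PDGFRB highest at 52.28 and PRRX1 at 0. In bulk RNA, fewer cells of a type and less RNA per cell cannot be told apart.

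NEFL and NES were the most abundant of the 7 transcripts and PRPH was close to the limit of detection. On the length-scaled level, in CPM per kilobase of exon, controls averaged 161 ± 7.13 for NEFL, 92.0 ± 7.49 for NES, 72.7 ± 3.85 for INA and 51.1 ± 3.25 for NEFM (SD, n = 3). NEFH followed at 11.8 ± 0.798, VIM at 4.94 ± 0.279 and PRPH at 0.340 ± 0.171. NEFL thus supplied 40.9% of the summed length-scaled level of the 7 genes in controls, NEFM 13% and NEFH 3.00%. The order NEFL, NES, INA, NEFM, NEFH, VIM, PRPH was found in 21 of 21 libraries. Per kilobase of exon that no other gene shares, the group means kept this order except under PFDS, where INA (83.2) exceeded NES (80.7), and the control levels of NEFM and PRPH became 69.4 and 1.19. Of 42 neighbouring pairs in that order (6 in each of 7 groups), the ranges of 3 libraries overlapped in 1, NES (73.98 to 90.71) and INA (66.38 to 75.15) under PFDS.

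**Figure D1:**
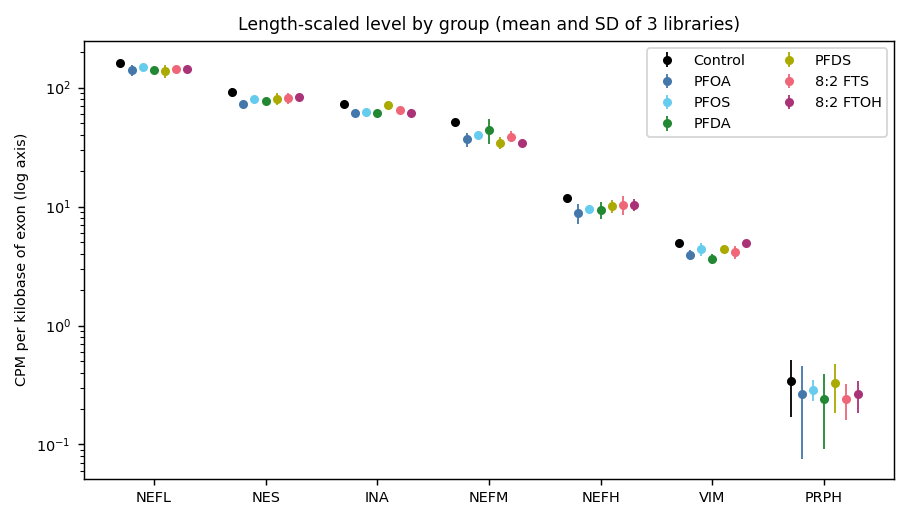
Level in CPM per kilobase of exon (log axis) of the 7 genes in the control and the 6 exposed groups; points are means of 3 libraries and bars are SD. The order from NEFL (161 in controls) to PRPH (0.340) was the same in every group, and the span between the genes is wider than any difference between groups.

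NEFM, the medium chain, was the 1 gene of the 7 that edgeR called when the 6 exposed groups were averaged and set against control. The 95% intervals of NEFL, NEFH, INA, VIM and NES were also negative throughout, without passing after adjustment. The level of NEFM in the 3 controls was 175.9, 182.4 and 198.8 CPM. PFOA libraries held 117.0, 153.1 and 130.1 CPM and PFOS libraries 140.4, 146.6 and 148.0. These 6 values lay below every control. PFDA libraries held 147.8, 204.1 and 131.5 CPM, so replicate 2 stood above the highest control and the other 2 below the lowest. PFDS libraries held 122.3, 112.9 and 140.9 CPM, 8:2 FTS libraries 139.3, 127.2 and 156.3, and 8:2 FTOH libraries 124.2, 118.0 and 129.7. In all, 17 of 18 exposed libraries lay below the lowest control, a pattern that 1.13% of the tested genes share. The mean of the 6 exposed groups fell by 25.9% against control, a log2 fold change of -0.43 (SE 0.095, 95% interval -0.63 to -0.23, adjusted p = 0.0457 by edgeR's quasi-likelihood test with Benjamini-Hochberg adjustment). This was rank 81 of 24879 genes by p. Of all genes tested, 0.35% were called in this comparison and 0.305% were called lower, against 1 of the 7 genes here.

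The call for NEFM lay close to the threshold. It was lost with DESeq2 size factors (edgeR adjusted p = 0.0534), with scaling by library size alone (0.0623) and with a replicate block (0.0557). The stricter filter kept it (edgeR adjusted p = 0.0444), and so did the DESeq2 test (adjusted p = 0.00233). DESeq2 called 196 genes in this comparison and edgeR without the filter, which also kept NEFM, 286, against 87 in the main fit. Over the alternatives the adjusted p of this call ran from 8.87e-10 to 0.367. Leaving out 1 library at a time kept it in 6 of 21 fits, with a log2 fold change of -0.47 to -0.38 throughout and an adjusted p (edgeR) from 3.28e-05 without PFDA replicate 2 to 0.367 without control replicate 2. The other controls gave 0.204 (replicate 1 left out) and 0.161 (replicate 3 left out). In the 7 exposed libraries with at least 20000000 counts, a depth like that of the controls, NEFM lay at 118.0 to 147.8 CPM, below the lowest control in 7 of 7. PFDA replicate 2, with 13258773 counts, is not among these 7. In the same libraries NEFL, INA and VIM each lay below their lowest control in 6, NEFH and NES in 5 and PRPH in 0. The share over all genes was not computed. ENSG00000272163, the gene that overlaps 26.4% of the NEFM exons on the other strand, stood at 13.7 ± 0.876 CPM in controls (SD, n = 3) and 10.6 to 16.3 in exposed libraries, with a log2 fold change of -0.07 (adjusted p = 0.887 by edgeR).

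**Figure D2:**
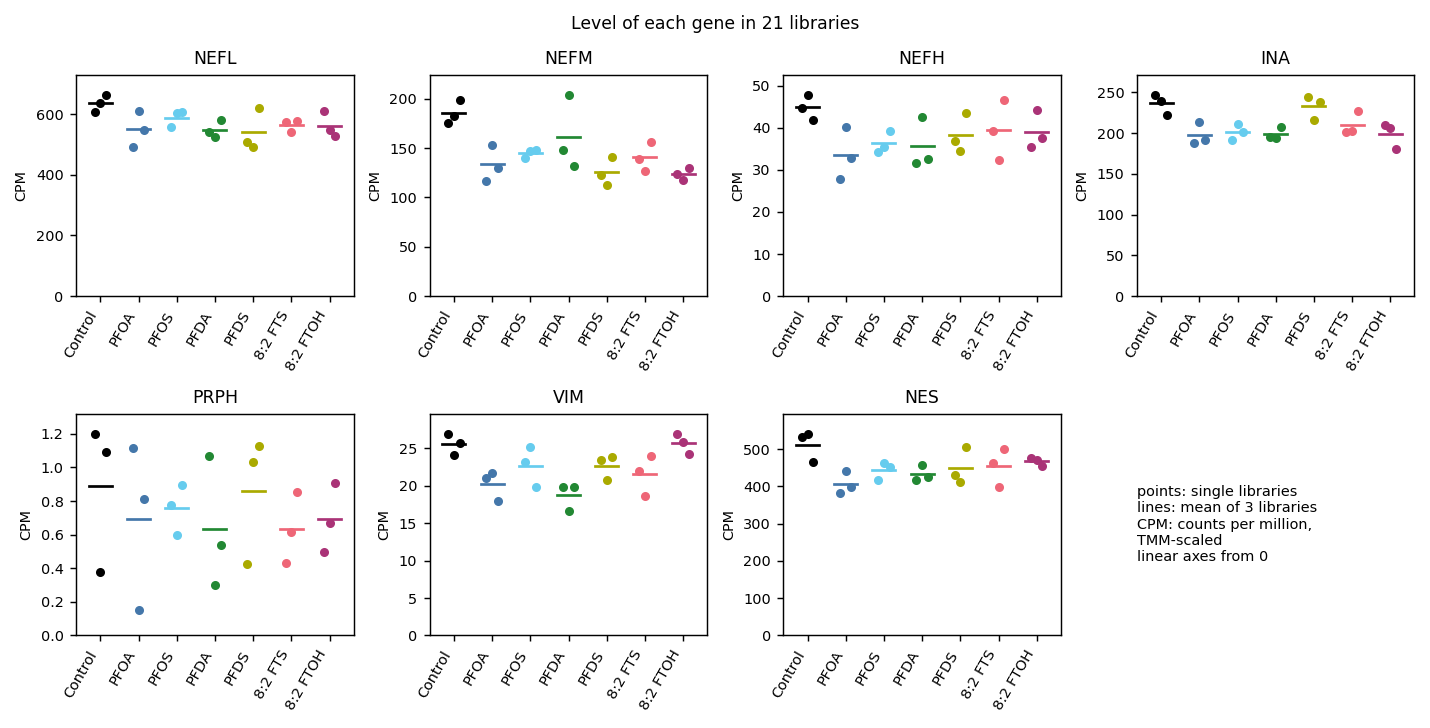
Level of each gene in CPM (linear axes from 0) in 21 libraries; points are single libraries, with 3 per group, and lines are group means. NEFM in 17 of 18 exposed libraries lies below the lowest control (175.9), and PFDA replicate 2 (204.1) is the exception.

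By edgeR no single compound gave a call for NEFM. The log2 fold change against control was -0.59 under 8:2 FTOH (SE 0.127, edgeR adjusted p = 0.116) and -0.56 under PFDS (SE 0.126, 0.17). It was -0.48 under PFOA (adjusted p = 0.186), -0.40 under 8:2 FTS (0.372), -0.36 under PFOS (0.58) and -0.21 under PFDA (0.681, edgeR). The 6 comparisons share the same 3 control libraries. The 95% interval of the PFDA estimate, -0.47 to 0.05, was the 1 of the 6 that reached 0.

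NEFL, the core subunit that filaments need to form, did not pass the edgeR test in any comparison over all libraries. Controls held 608.4, 635.8 and 664.5 CPM, and the 18 exposed libraries ran from 492.2 (PFOA replicate 1) through a median of 553.1 to 621.3 (PFDS replicate 3). Of these, 15 lay below the lowest control and 0 above the highest, a count whose share over all genes was not computed. The log2 fold change over all compounds was -0.19 (95% interval -0.31 to -0.06, edgeR adjusted p = 0.228). Every library of PFOS, PFDA and 8:2 FTS lay below the controls, while PFOA, PFDS and 8:2 FTOH each had 1 library inside their range. Without PFDS replicate 3, the library inside it, NEFL was called for PFDS, at a log2 fold change of -0.34 (edgeR adjusted p = 0.0429, and 0.0429 to 1 over the alternatives), in a fit that called 100 genes for PFDS in place of 6.

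NEFH, the heavy chain that is added last as axons mature, stood at 44.8, 47.9 and 41.8 CPM in controls. Exposed libraries ran from 27.8 (PFOA replicate 1) through a median of 36.1 to 46.6 (8:2 FTS replicate 3). Of these, 14 of 18 lay below the lowest control, and the share over all genes for this count was not computed either. The lowest group was PFOA with 27.8, 40.2 and 32.8 CPM, a log2 fold change of -0.42 (SE 0.128, edgeR adjusted p = 0.244). Over all compounds it was -0.28 (95% interval -0.47 to -0.08, edgeR adjusted p = 0.244). Beside the 0 calls for NEFH stand 3 comparisons with single compounds at an unadjusted p under 0.05, PFOA, PFOS and PFDA.

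INA, the internexin subunit, stood near the control level under PFDS and below it under 4 other compounds, without passing the test for any. Controls held 247.2, 239.3 and 222.7 CPM and PFDS libraries 244.3, 215.8 and 238.7, which is the same range within the spread. All 3 libraries of PFOA (187.6, 213.2, 191.0), of PFOS (191.3, 210.9, 201.5), of PFDA (195.1, 194.5, 207.6) and of 8:2 FTOH (209.4, 206.7, 180.1) lay below the lowest control. 8:2 FTS libraries held 201.3, 202.8 and 227.5 CPM and overlapped the controls. Against control the log2 fold change ran from -0.26 under PFOA (edgeR adjusted p = 0.181) to -0.02 under PFDS (95% interval -0.17 to 0.13, adjusted p = 0.995). Over all compounds it was -0.20 (adjusted p = 0.126).

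NES, which pairs with vimentin in neural progenitors, had its lowest adjusted p for a single compound under PFOA, without passing the threshold. Controls held 531.6, 540.5 and 464.3 CPM and PFOA libraries 381.0, 441.2 and 398.0, with no overlap. The log2 fold change was -0.33 (SE 0.083, 95% interval -0.50 to -0.16, edgeR adjusted p = 0.144, and 0.00763 to 0.863 over the alternatives). PFOS libraries (417.9, 463.9, 451.0) and PFDA libraries (416.0, 456.1, 425.5) also lay below the controls, with PFOS replicate 2 within 1 CPM of control replicate 3. Control replicate 3, with the high mitochondrial share, was the lowest control, and without it NES was called for PFOA (-0.40, edgeR adjusted p = 0.0235), in a fit that called 136 genes for PFOA in place of 8. For the other compounds the log2 fold change of NES lay between -0.24 (PFDA) and -0.13 (8:2 FTOH), and over all compounds it was -0.21 (edgeR adjusted p = 0.143).

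VIM, the filament of mesenchymal and immature cells, stood at 26.9, 24.0 and 25.7 CPM in controls. It was lowest under PFDA at 19.8, 16.6 and 19.9 CPM, a log2 fold change of -0.44 (SE 0.115, edgeR adjusted p = 0.249), and 8:2 FTOH libraries at 26.9, 25.9 and 24.3 overlapped the controls (0.01, 95% interval -0.22 to 0.25, adjusted p = 0.994). PFOA libraries held 20.99, 21.65 and 17.99 CPM, PFDS libraries 23.47, 20.78 and 23.8, and 8:2 FTS libraries 21.97, 18.6 and 24.01. These 9 values also lay below the lowest control (24.05), the highest of them by less than 0.1 CPM. PFOS libraries held 23.12, 25.14 and 19.79 CPM and overlapped the controls. Over all compounds the log2 fold change was -0.23 (edgeR adjusted p = 0.309).

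PRPH, the peripherin gene, gave 2 to 29 counts per library (median 13). Controls held 1.2, 0.38 and 1.1 CPM and exposed libraries 0.15 to 1.1, so a difference was not detectable at these counts. Over all compounds its log2 fold change was -0.32 with a 95% interval of -1.12 to 0.48 (edgeR adjusted p = 0.858).

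**Figure D3:**
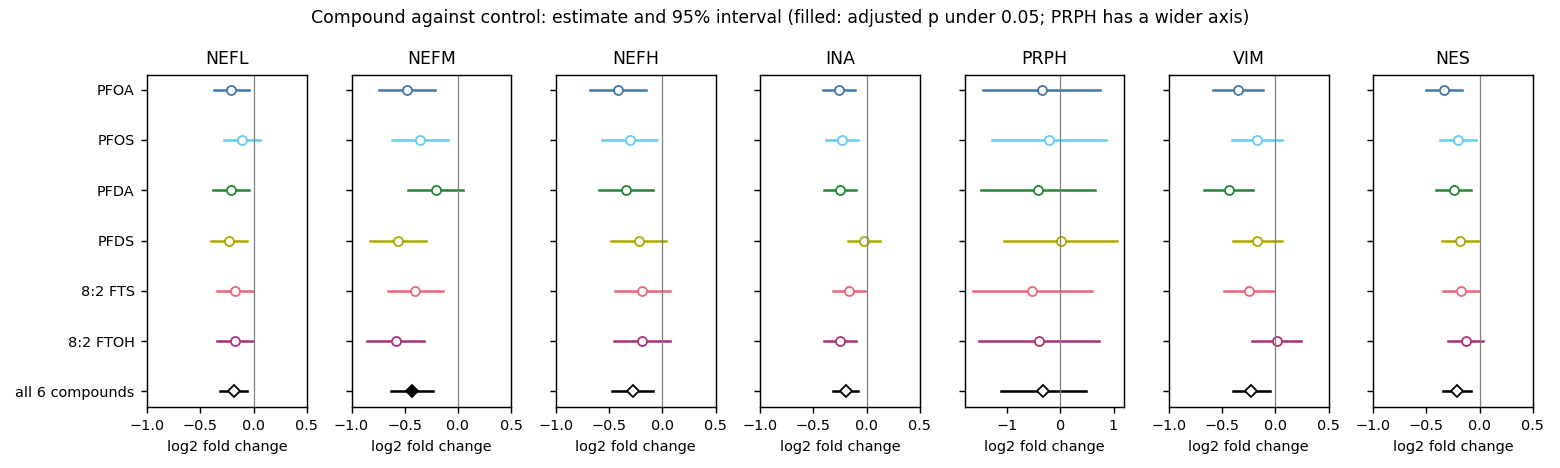
Log2 fold change of each gene against control (edgeR) for the 6 compounds and for their mean (diamond); lines are 95% intervals, filled symbols have an adjusted p under 0.05 and PRPH has a wider axis. The 1 filled symbol is NEFM over all compounds (-0.43).

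Read across compounds, the 7 genes were not called by edgeR for any single compound. For PFOA 0 of 7 passed against 0.0322% of all genes, with 6 of 7 at an unadjusted p under 0.05 (10.1% of all genes) and 5 with all 3 libraries below the controls (8.46%). For PFOS 0 of 7 passed (0.0241%), with 4 at an unadjusted p under 0.05 (6.83%) and 5 entirely below (7.41%). For PFDA 0 of 7 passed (0.00804%), with 5 (8.43%) and 4 (7.85%). PFDS gave 0 of 7 (0.0241%), with 3 (5.58%) and 2 (4.53%). 8:2 FTS gave 0 of 7 (0.0844%), with 5 (7.77%) and 3 (7.17%). 8:2 FTOH gave 0 of 7 (0.0322%), with 3 (7.83%) and 2 (6.98%). DESeq2 called NEFM and NES for PFOA, NEFM for PFDS and NEFM for 8:2 FTOH, and 0 of 7 for the other 3 compounds. It made more calls over all genes too, 75 for PFOA, 30 for PFDS and 59 for 8:2 FTOH against 8, 6 and 8 by edgeR. The median log2 fold change of the 7 genes was -0.35 under PFOA, -0.25 under PFDA and -0.22 under PFOS. It was -0.19 for PFDS and for both fluorotelomers, where the median of all genes lay between 0.002 and 0.009. Over all compounds it was -0.23 (all genes 0.003), with 6 of 7 at an unadjusted p under 0.05 (9.98% of all genes). The test for any difference among the 7 groups called 0 of the 7 genes by edgeR (0.0322% of all genes), 4 of 7 at an unadjusted p under 0.05 (5.91%). DESeq2 called NEFM and INA there, among 86 genes against 8 by edgeR.

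The balance between the subunits was measured as reads of a gene per NEFL read in the same library, a ratio that scaling between libraries does not change. NEFM gave 0.287 to 0.299 reads per NEFL read in the 3 controls. The group means were 0.242 under PFOA, 0.246 under PFOS, 0.232 under PFDS, 0.250 under 8:2 FTS and 0.221 under 8:2 FTOH. PFDA averaged 0.296, from 0.226 to 0.389. In 17 of 18 exposed libraries the ratio lay below the lowest control, a pattern whose share over all genes was not computed. The exception was again PFDA replicate 2 (0.389). The mean log2 ratio differed from control by -0.249, which did not pass a two-sided exact permutation test over the libraries (p = 0.105, 0.632 adjusted over the 6 ratios). Without PFDA replicate 2 the difference was -0.288. No p-value is given for it, because the library left out is the 1 exception to the pattern. The ratio, its test and the library left out were chosen after the values were seen. NEFH per NEFL read lay below the lowest control in 8 of 18 exposed libraries and above the highest in 3. VIM per NEFL read did so in 7 and 3. NES per NEFL read lay outside the control range in 0 of 18 exposed libraries. INA per NEFL read averaged 0.373 ± 0.0358 in controls and 0.434 ± 0.0477 under PFDS (SD, n = 3), and 2 of 18 exposed libraries, both PFDS, exceeded the highest control.

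**Figure D4:**
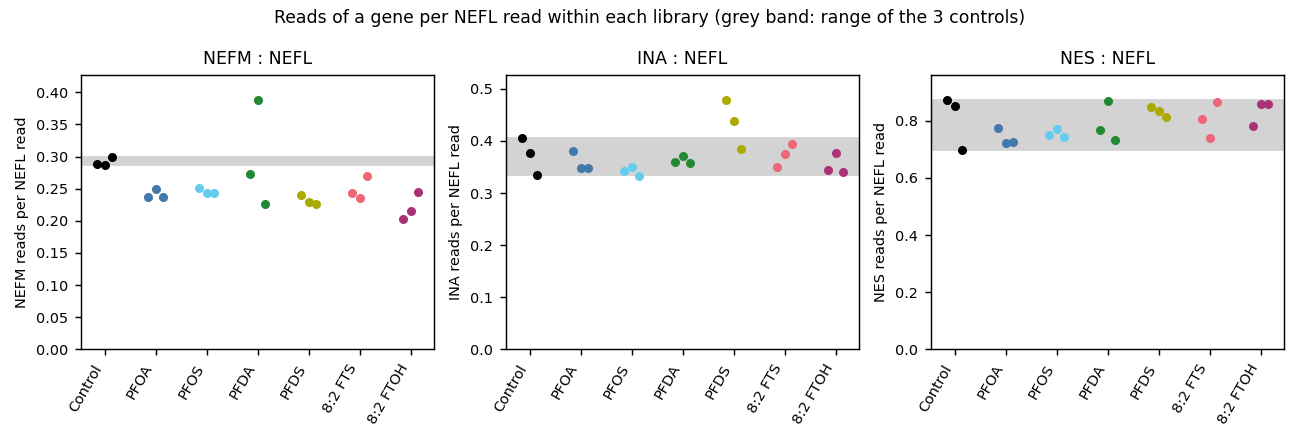
Reads of NEFM, INA and NES per NEFL read within each of 21 libraries (linear axes from 0); points are single libraries and the grey band is the range of the 3 controls. NEFM lies below the band (0.287 to 0.299) in 17 of 18 exposed libraries, while NES stays inside its band in all of them. The share of all genes with such a ratio to NEFL was not computed.

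Compounds that differ by chain length, by head group or by the hydrocarbon link of the fluorotelomers were compared at the same 30 µM and 24 h. There were 8 pairs, 56 tests over the 7 genes. By edgeR and by DESeq2 0 of 56 passed after adjustment over all genes (0% of all genes called by edgeR in 6 pairs, 0.00402% for PFDS against PFOS and for 8:2 FTOH against PFOA), and 8 of 56 had an unadjusted p under 0.05 (4.32% over all genes and the 8 pairs). For chain length among the sulfonic acids, INA was higher under PFDS than under PFOS by 0.21 on the log2 scale (95% interval 0.06 to 0.36, unadjusted p = 0.00716 by edgeR). Among the carboxylic acids, NEFM under PFDA exceeded PFOA by 0.27 (0.00 to 0.53, unadjusted p = 0.0472 by edgeR), a value that includes PFDA replicate 2.

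For the head group, PFDS against PFDA gave 3 of the 8. NEFM differed by -0.35 (95% interval -0.62 to -0.09, unadjusted p = 0.011 by edgeR). INA differed by 0.23 (0.07 to 0.38, unadjusted p = 0.00423 by edgeR) and VIM by 0.27 (0.03 to 0.51, unadjusted p = 0.0264 by edgeR). NEFM libraries of the 2 groups did overlap, with PFDS replicate 3 at 140.9 and PFDA replicate 3 at 131.5 CPM, while INA libraries did not. For the shorter pair, PFOS against PFOA, 0 of 7 had an unadjusted p under 0.05, and the interval for NEFM ran from -0.14 to 0.38. VIM was lower under 8:2 FTS than under 8:2 FTOH (-0.26, 95% interval -0.50 to -0.02, unadjusted p = 0.0348 by edgeR). 8:2 FTOH and PFOA differ by the hydrocarbon link as well as by the head group. VIM was higher under 8:2 FTOH than under PFOA by 0.36 (0.12 to 0.60, unadjusted p = 0.00462 by edgeR) and NES by 0.20 (0.03 to 0.37, unadjusted p = 0.0204 by edgeR). The adjusted p of these 8 differences was 0.6 or more. Neither 8:2 FTS against PFDS nor 8:2 FTS against PFOS, pairs that share the sulfonic acid group, gave an unadjusted p under 0.05 by edgeR. For NEFM their intervals were -0.10 to 0.43 and -0.31 to 0.22.

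Genes with which the filaments work were counted from 10 lists. Of the neuronal microtubule and growth cone genes, 3 of 25 were called lower over all compounds (0.305% of all genes called lower) and 0 higher. Calls in this comparison depend on single libraries, since 87 genes were called in the main fit and 4 without control replicate 2. The genes of the lists were not followed through the alternatives. GAP43, a growth cone protein, fell by 0.34 on the log2 scale (SE 0.066, adjusted p = 0.00978), MAP1B, a microtubule-binding protein of growing axons, by 0.29 (SE 0.070, 0.0397) and DPYSL3, a collapsin response protein, by 0.29 (SE 0.064, 0.0268), all by edgeR. GAP43 held 293.4 to 304.1 CPM in controls and 199.9 to 281.9 in exposed libraries, and DPYSL3 796.5 to 835.5 and 575.4 to 778.7, with no overlap. Among all tested genes, 1.13% had at least 17 of 18 exposed libraries below the lowest control. MAP1B held 5334 to 5524 and 3789 to 5432 CPM, which overlap. The median log2 fold change of the 25 genes was -0.15, and 14 of 25 had an unadjusted p under 0.05 (9.98% of all genes).

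Of the genes for turnover and folding of filament proteins, 1 of 18 tested (19 listed) was called over all compounds (0.35% of all genes). HSPA8, a constitutive chaperone, fell by 0.32 on the log2 scale (SE 0.076, edgeR adjusted p = 0.044), from 1202 to 1493 CPM in controls to 888.1 to 1397 in exposed libraries, and the list's median was -0.06, with 4 of 18 at an unadjusted p under 0.05. Each of the other 8 lists gave 0 calls over all compounds by edgeR, and their counts at an unadjusted p under 0.05 stand against the same 9.98% of all genes. The other intermediate filament genes (11 of 15 tested, 1 at an unadjusted p under 0.05) had a median of -0.10, with the nuclear lamin LMNB1 at -0.21 (SE 0.058, adjusted p = 0.1), LMNB2 at -0.10 and LMNA at 0.08. Cross-linkers and anchors (13 of 14 tested, 3 at an unadjusted p under 0.05) had a median of -0.07, with the spectrins SPTBN1 at -0.14 and SPTAN1 at -0.10 and the dynein partner NUDC at -0.27.

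Kinases and phosphatases of neurofilament tails (26 tested, 6 at an unadjusted p under 0.05) had a median of -0.07, with PRKCA at -0.15 and PPP1CC at -0.11. The motors that carry neurofilaments (15 tested, 6 at an unadjusted p under 0.05) had a median of -0.07, with the kinesin KIF5B at -0.15 and the dynein subunits DYNC1H1 and DYNC1I2 at -0.07 and -0.11. RNA-binding proteins of neurofilament mRNA (11 tested, 5 at an unadjusted p under 0.05) had a median of -0.09, with ELAVL4 at -0.20, ELAVL3 at -0.16 and HNRNPK at -0.12.

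The other 3 lists hold genes of cell states. Transcription factors of the adrenergic neuroblastoma state (14 of 15 tested, 2 at an unadjusted p under 0.05) had a median of -0.03, with HAND2 at -0.03, PHOX2A at 0.03 and TFAP2B at -0.01. Markers of the mesenchymal state (21 of 23 tested, 4 at an unadjusted p under 0.05) had a median of -0.06, with TWIST1 at -0.05, LGALS1 at 0.10 and S100A6 at -0.23. Neural progenitor genes (13 of 16 tested, 1 at an unadjusted p under 0.05) had a median of -0.03, with SOX4 at -0.01, TOP2A at -0.08 and the proliferation marker MKI67 at -0.23 (edgeR adjusted p = 0.0966). In each comparison with a single compound, and in each pair of compounds, the 10 lists gave 0 calls by edgeR.

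The genes whose level followed each of the 7 most closely were ranked by Pearson's r of log2 CPM over the 21 libraries, among 10375 protein-coding genes with a mean of at least 10 CPM. These r values are descriptions, since the libraries share groups and scaling. NEFL was followed by DPYSL3 (0.90), HNRNPA0 (0.88) and RTN1 (0.88), and NEFM by FKBP3 (0.86), IFT57 (0.83) and NUDC (0.83). NEFH was followed most closely by NES (0.89), and PRXL2A was near both (0.86 with NEFH, 0.91 with NES). INA was followed by UBAP2L (0.93), ST8SIA2 (0.91) and SOGA1 (0.90), NES also by MYH9 (0.90) and UBE2L3 (0.89), and NEFH by TXLNA (0.83). VIM reached 0.78 with ANKRD50, 0.77 with PNMA1 and 0.76 with CNRIP1, and the low counts of PRPH reached 0.66 with DCAKD. Among the 7 genes, NEFM had an r of 0.60 with NEFH, 0.58 with NEFL, 0.29 with INA and 0.01 with VIM.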

How the data were processed

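RNA-seq counts and the authors' normalized values were used. Per the submitters' processing notes, reads were checked with FastQC and MultiQC, aligned with HISAT2 to hg38, sorted with SAMtools and counted with featureCounts, and DESeq2 is named there too. Per the file headers, the deposited counts come from featureCounts 2.0.1 without strand or read pair options, although the kit is stranded per the labels' protocols. The authors' normalized table (unit signal, 37476 genes, 19 libraries) held counts divided by 1 factor per library: 100% of its values were whole reads within 0.01 after multiplying back and 100% of these equalled the deposited counts. The counts were used for every test.

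Counts were filtered with filterByExpr and scaled with TMM in edgeR 4.0.16 (R 4.3.3). A robust quasi-likelihood model over all 21 libraries (biological coefficient of variation 0.1124) gave 16 comparisons, each adjusted over 24879 genes by Benjamini-Hochberg at 0.05. Counts ran from 7680024 to 30429746 per library. Intervals are 95% from that fit. Alternatives were DESeq2 size factors, scaling by library size, no filter or a stricter one (mean CPM of 1 and mean count of 10), a replicate block, only the groups compared, DESeq2 1.42.0, and leaving libraries out. Reads recovered from the normalized table were added after seeing the data. Exact permutation tests used scipy 1.17.1. Sequences are RefSeq's (GRCh38.p14). The procedure was tested on simulated data.

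All 7 genes are named in every comparison. Of each list, genes called in any comparison are named, or otherwise the 3 with the highest control level per kilobase, and for likeness the 3 with the highest r. The value of 1 gene that this rule selects is not reported here. The genes and lists were chosen with earlier results of these data known.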

Additional observations from a re-analysis of the deposited data

How the results depend on the processing

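Of the values of single genes under the alternatives, 890 kept their direction and side of the threshold, 26 passed it, 20 no longer did and 10 changed sign. The 7 genes had 0 calls for each compound and 1, NEFM, over all compounds. Without the filter the calls were 3 for PFOA, 1 each for PFOS, PFDS and both fluorotelomers, 1 for PFDS against PFDA, 3 over all compounds and 1 for any difference. Fitting only the groups compared gave 2 for PFOA and 1 each for PFOS, PFDS and both fluorotelomers. DESeq2 gave 2 for PFOA, 1 for PFDS, 1 for 8:2 FTOH and 2 for any difference, and kept NEFM over all compounds. Leaving out control replicate 3 and 8:2 FTOH replicate 3 together gave 1 for PFOA (NES) and 0 over all compounds, and the reads recovered from the normalized table gave 1 for PFOA and, over all compounds, NES in place of NEFM. DESeq2 size factors, library size alone and the replicate block each gave 0 over all compounds, where the edgeR adjusted p of NEFM was 0.0534, 0.0623 and 0.0557 in turn. The cause was not tested.

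Leaving out 1 library gave 0 to 1 calls for PFOA, 0 to 1 for PFDS, 0 to 2 over all compounds and 0 to 1 for any difference. Without PFDS replicate 3, NEFM and NES were called over all compounds. Log2 fold changes that changed sign were INA under PFDS with library size alone (0.003) and over single libraries left out (-0.061 to 0.039), VIM under 8:2 FTOH (-0.028 to 0.057), and PRPH under PFOA (-0.758 to 0.09), PFOS (-0.587 to 0.068) and PFDS (-0.363 to 0.294). NEFM per NEFL read differed from control by -0.249 on the log2 scale with PFDA replicate 2 and by -0.288 without it.

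Over all genes, 87 were called over all compounds (11 higher, 76 lower), 4 without control replicate 2, 217 without PFDS replicate 3, 163 without the 2 libraries together (78 higher, 85 lower), 286 without the filter, 196 by DESeq2 (59 higher, 137 lower), 165 from the recovered reads and 54 with library size alone (21 higher, 33 lower). For PFOA, 8:2 FTOH, PFOS, 8:2 FTS and PFDS in turn, 8, 8, 6, 21 and 6 genes were called, 161, 107, 52, 126 and 86 without the filter, and 82, 31, 48, 50 and 2 with only the groups compared. PFDS against PFDA had 10 and any difference 269 without the filter. In the check of pairing, 16 of 63 pairs of libraries with the same replicate number had a correlation over 0.1 (median 0) and 7 of 21 libraries correlated best with their own number, so the numbers were not taken as pairs. The replicate block called 67 genes over all compounds. PRPH had 2 to 29 counts per library.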
